A study of Mus musculus with 6 samples.

Results

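The genes examined here encode the proteins of the cytosolic ribosome in mouse GS cells, a spermatogonial culture that contains the stem cells of spermatogenesis. Members were all autosomal genes whose symbol starts with Rpl or Rps and a digit, except the Rps6k kinases, with CpG sites no more than 1000 bp from the transcription start site (TSS) and at least 10 reads at the site in all 6 samples. This rule gave 70 genes with 1663 CpG sites, out of 16245 genes with 390568 such sites and 681804 sites at any distance. Of the 70 genes, 24 encode proteins of the small subunit, 38 encode proteins of the large subunit and 7 are paralogs of them (*Rpl10l*, *Rpl22l1*, *Rpl36al*, *Rpl39l*, *Rpl3l*, *Rpl7l1* and *Rps27l*). The remaining one, *Rps19bp1*, encodes a protein named for binding RPS19 and is not a ribosomal subunit. No pseudogene with -ps in its symbol passed the rule, so that the planned comparison of pseudogenes with genes gave no value.

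DNA methylation was measured by reduced representation bisulfite sequencing (RRBS), in which CpG-rich fragments are read after a treatment that converts unmethylated but not methylated cytosines. Space GS cells were stored frozen for 6 months in the International Space Station and Ground GS cells on Earth for as long, with 3 biological replicates per group. Per the study, the cells were thawed, cultured and passaged before the methylation analysis, so the levels are those of cultured cells. GS cells were grown on mouse embryonic fibroblasts as feeder cells. All 6 samples were GS cells of the same background, a C57BL6/Tg14(act-EGFP-OsbY01) transgenic line bred into DBA/2, so that both groups carry the EGFP transgene. The comparison asks whether storage in space changed the methylation of these promoters. The methylation level of a gene is the percent of methylated reads among all reads of its CpG sites, and a group value is the mean ± SD of 3 replicates.

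A ribosome is built from a small subunit, which decodes the mRNA, and a large subunit, which joins amino acids, and each holds many proteins besides its rRNA. The genes of these proteins are transcribed in nearly every cell, most of them from a promoter inside a CpG island, and their mRNAs typically start with a run of pyrimidines that links their translation to growth signals. CpG islands of active promoters are usually unmethylated. Reverse-transcribed copies of these mRNAs have left many pseudogenes in mammalian genomes, most of which lack the promoter of the parent gene.

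The DNA around the starts is shown because CpG dinucleotides are what RRBS measures. RefSeq promoters of build GRCm38.p6, each with 250 bases before and 50 bases after the start, were found for 54 of the 70 genes, with 66 starts in all. The lines below give 20 bases before and 10 bases after the start of 6 genes described later, 5′ to 3′ on the strand of the gene, with CpG dinucleotides in capitals.
Rps6 (chr4:86857358-86857387, minus strand): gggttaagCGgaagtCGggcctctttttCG
Rps12 (chr10:23787200-23787229, minus strand): ttaaatacCGtcatgCGgccacCGcCGgcc
Rpl5 (chr5:107900508-107900537, plus strand): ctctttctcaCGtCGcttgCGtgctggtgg
Rpl31 (chr1:39367831-39367860, plus strand): cacctcttcctcctCGcctcccCGtgaccc
Rpl39l (chr16:10170208-10170237, plus strand): cctagctcccaggcctttcCGgatttcCGg
Rpl10l (chr12:66284392-66284421, minus strand): agaaatttggcctccattttgCGgctggCG

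Each stretch held between 2 and 4 CpG dinucleotides, and *Rps6* had a run of 10 pyrimidines across its start. The methylation table uses build mm39, so the measured sites were not placed on these letters. In the whole 300 bases, the 66 starts had a median of 21 CpG dinucleotides, ranging from 2 in one start of *Rpl3l* to 42, and a median G and C content of 58.5%. The 75 starts of mitochondrial ribosomal protein genes also had a median of 21, whereas all 31396 autosomal starts of the table had a median of 7. A run of at least 5 pyrimidines at the start was present at 30.3% of the ribosomal protein starts and 16.1% of all starts. Such a run crossed the start or only touched it, as in *Rpl39l*, where the run of 7 ended just before the start. The ETS core CCGGAAG on either strand was present at 34.8% of the ribosomal protein starts, at 34.7% of the mitochondrial ribosomal protein starts and at 9.0% of all starts. The YY1 motif AAGATGGC was present at 10.6% of the ribosomal protein starts, 16% of the mitochondrial ribosomal protein starts and 2.75% of all starts. The Sp1 motif GGGCGG was present at 59.1%, 52% and 36.0% of them. These motifs were searched on both strands as exact letters, and a match is a description of the sequence.

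The summed reads over all sites of the table were between 28535973 and 33743845 per sample, and those over the sites of the 70 genes were between 53892 and 62591. Reads spanning more than 1 site enter these sums once per site. Coverage of a member site in a sample ranged from 10 to 92 reads with a median of 31, and 1 read at the minimum coverage equals 10 percentage points. The promoters of all 10 germline markers (*Ddx4*, *Dazl*, *Mael*, *Sycp3*, *Tdrd1*, *Zbtb16*, *Gfra1*, *Ret*, *Id4* and *Etv5*) had mean levels between 0.740% (*Mael*) and 3.23% (*Tdrd1*). The 3 fibroblast markers of 6 with sites (*Col1a2*, *Twist1* and *Twist2*) were at 1.27% to 2.03%, with 1 site in *Col1a2*. Both lists were thus low in these cultures. No sample of fibroblasts alone was measured here, and a share of feeder cells was not tested.

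The ribosomal protein genes were almost free of methylation in both groups. Averaged over the 70 genes, the level was 2.66%, 2.68% and 2.66% in Space GS cells and 3.00%, 2.42% and 2.22% in Ground GS cells. The Space samples lay within the range of the Ground samples, with 2.67% ± 0.0144 against 2.55% ± 0.402 (SD, n = 3 each). This difference of 0.121 percentage points lay within 1 SD of the Ground samples (exact permutation test over samples, two-sided, p = 0.7, where 0.1 is the smallest p that 3 against 3 can give). The median gene had a level of 1.95%, 36 of 70 genes were under 2% and 67 (95.7%) were under 5%. The rate of incomplete conversion was not given in the sources used here, and levels this low cannot be told apart from it. The lowest level was 0.338% in *Rps13*, and the highest were 19.3% in *Rpl35*, 18.0% in *Rps10* and 8.24% in *Rps12*.

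**Figure D1:**
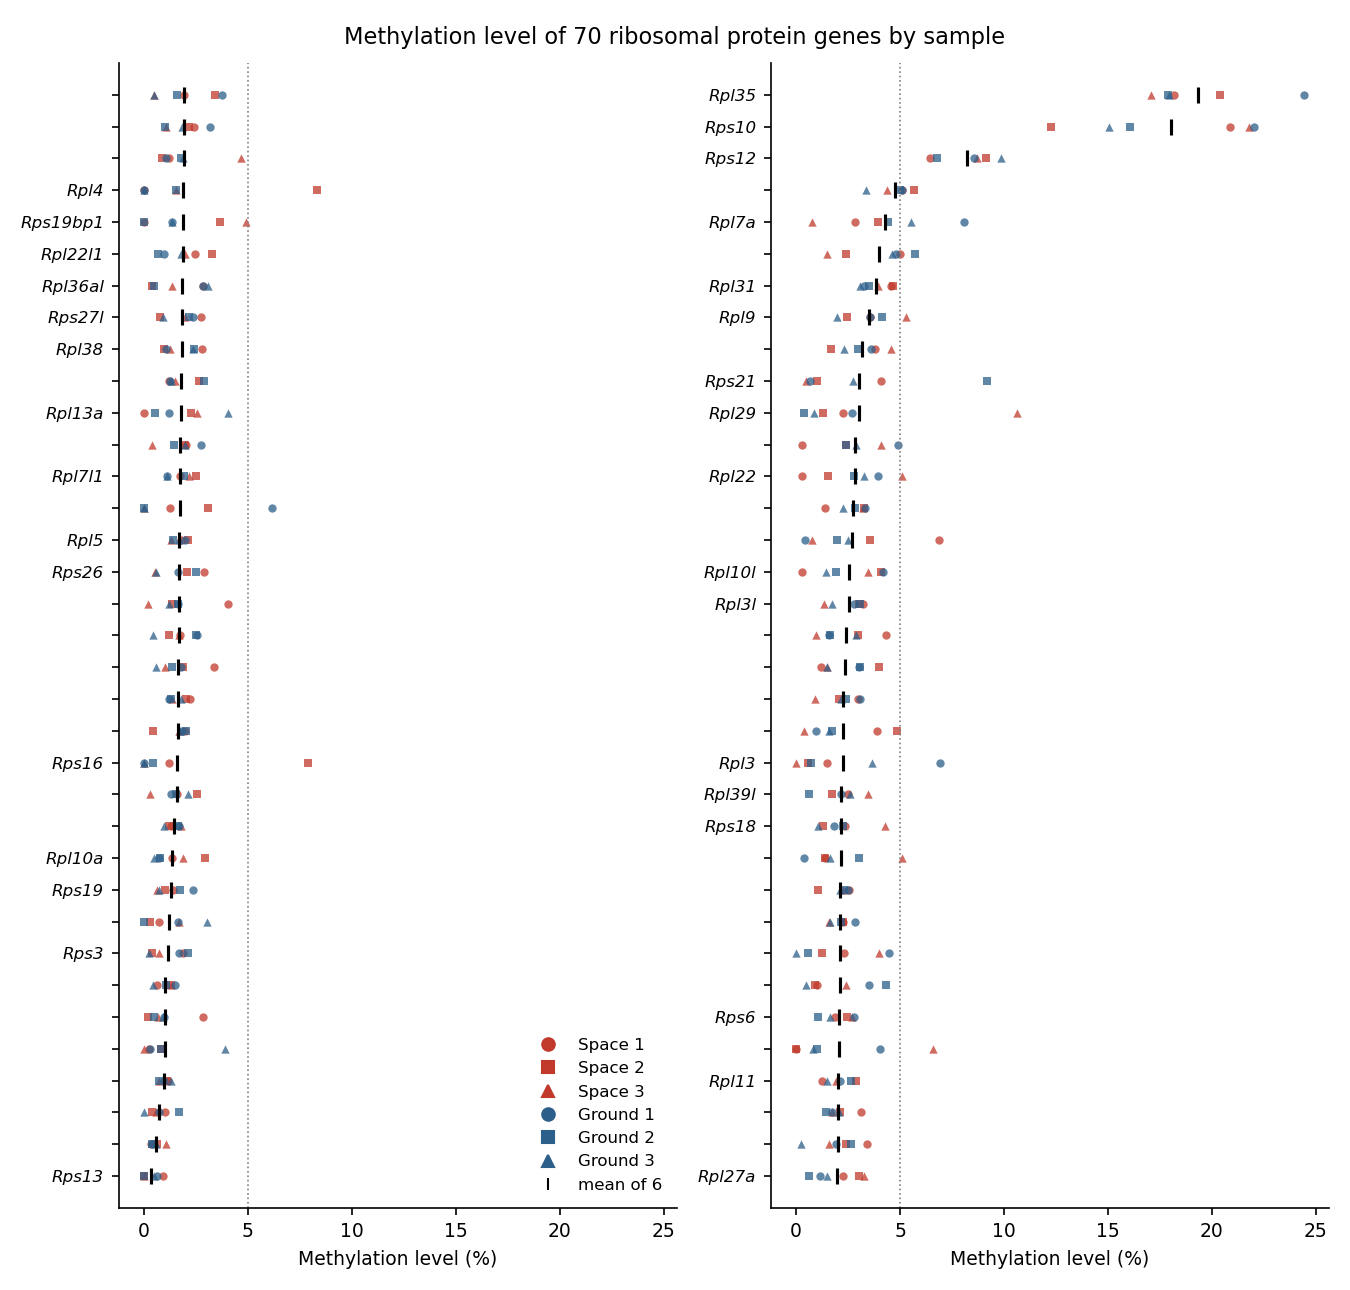
Methylation level in percent (x axis) of each of the 70 genes (y axis, ordered by mean, with the genes described in the text labelled), with 1 point per sample and a black bar at the mean of 6 samples. Red points are Space and blue points Ground samples, the dotted line marks 5%, and only *Rps12*, *Rps10* and *Rpl35* have a mean above it.

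Both subunits had like levels. The 24 genes of the small subunit averaged 2.85% ± 0.237 in Space and 2.7% ± 0.460 in Ground GS cells, and the 38 genes of the large subunit 2.62% ± 0.136 and 2.61% ± 0.458. *Rps6*, whose protein is phosphorylated downstream of growth signals, had 1.85%, 2.44% and 2.68% in Space and 2.80%, 1.03% and 1.65% in Ground GS cells. *Rps19*, mutated in Diamond-Blackfan anemia, averaged 1.30%, and *Rps3*, which encodes a protein at the mRNA entry of the small subunit, averaged 1.16%. *Rpl5* and *Rpl11*, whose proteins bind MDM2 when ribosome assembly is disturbed, averaged 1.70% and 2.04%. *Rpl38*, needed for the translation of a subset of Hox mRNAs, averaged 1.81%, and *Rps26*, whose protein lies at the mRNA exit, averaged 1.69%. None of these genes had separate Space and Ground values.

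The paralogs had low levels as well, with means between 1.75% (*Rpl7l1*) and 2.56% (*Rpl10l*). *Rpl10l* and *Rpl39l* are autosomal paralogs of X-linked genes and are known for their use in male germ cells, and *Rpl3l* is known as the muscle form of *Rpl3*. *Rpl10l* had 0.269%, 4.10% and 3.46% in Space and 4.19%, 1.90% and 1.42% in Ground GS cells. *Rpl39l* had 2.50%, 1.70% and 3.43% in Space and 2.17%, 0.640% and 2.61% in Ground GS cells. *Rpl3l* averaged 2.53% and *Rpl3* 2.23%, but at unlike positions. The sites of *Rpl3l* lay from 357 to 863 bp, downstream of the TSS, and those of *Rpl3* from −898 to −575 bp, upstream of it. *Rps27l* averaged 1.82%. Thus the measured sites of the tissue-restricted *Rpl10l*, *Rpl39l* and *Rpl3l* were within the range of the genes used in every cell. For *Rpl3l*, this leaves out the DNA next to the start, where no site was measured. On the X chromosome, which the rule leaves out, *Rpl36a* averaged 4.57% over 2 sites and *Rps4x* 2.46% over 6 sites.

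The mean level of the ribosomal protein genes was below that of the 15795 other autosomal genes, by a difference of −6.13 percentage points (SD over samples 0.157, lower in 6 of 6 samples, exact sign-flip permutation test, two-sided, p = 0.03125, the smallest that 6 samples can give). This sign-flip test measures only whether the 6 libraries agree, and not whether the gene sets differ beyond the variation between genes. Any 5 of the samples cannot give a p below 0.0625, and the difference was then between −6.17 and −6.08. The medians differed by only 0.0376 percentage points (exact sign-flip permutation test, p = 0.71875). Thus the typical ribosomal protein gene had the level of the typical gene, at 1.95% against 1.88%. The difference of the means lay in the upper tail, since 8.56% of the other genes and 0 of the 70 ribosomal protein genes were at 20% or more. The size of this difference depended on the genes and sites admitted. All 70 ribosomal protein genes had at least 3 sites, whereas the other genes, and the 8.56%, include genes with fewer. Against other genes with at least 3 sites the difference was −2.03, much smaller than −6.13. It was −3.15 with a coverage minimum of 20 reads. Against the 68 mitochondrial ribosomal protein genes, the mean was 0.413 percentage points higher (exact sign-flip permutation test, p = 0.0625).

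**Figure D2:**
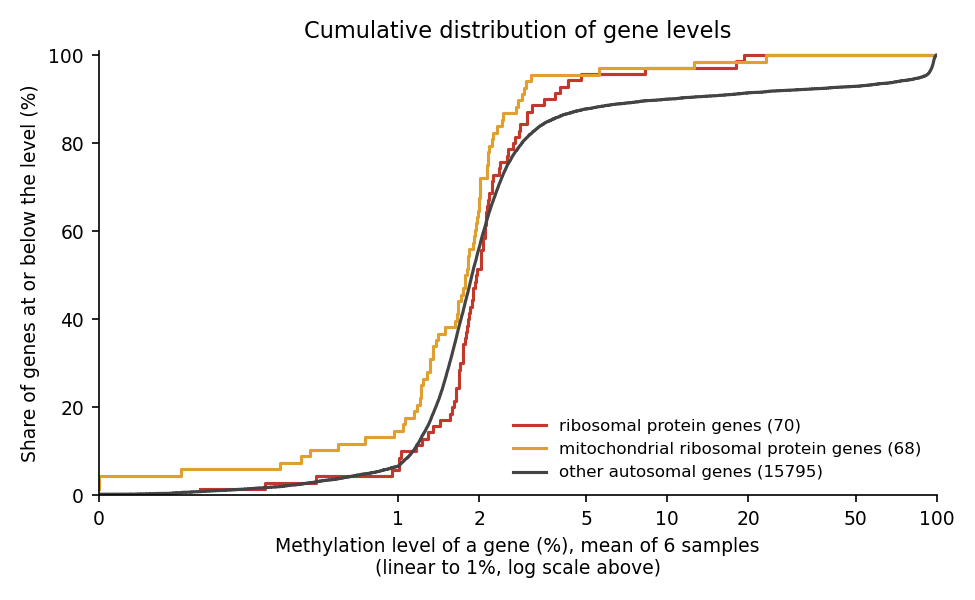
Cumulative share of genes in percent (y axis) at or below a methylation level in percent (x axis, linear to 1% and logarithmic above) for 70 ribosomal protein genes, 68 mitochondrial ribosomal protein genes and 15795 other autosomal genes, each gene being the mean of 6 samples. The curves of the ribosomal protein genes and the other genes cross near their medians, and at 5% they are at 95.7% and 87.8%.

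Most sites of these genes with a level of 20% or more lay farther than 500 bp from the TSS. Of the 1663 sites, 1603 (96.4%) had a mean level under 5% and 153 (9.20%) had no methylated read in any sample. The 1385 sites no more than 500 bp from the TSS averaged 1.78%, and the 278 sites farther than 500 bp averaged 4.54%. Other autosomal genes averaged 6.47% from −1000 to −500 bp and 2.91% from 500 to 1000 bp, beside 2.10% from 0 to 250 bp. In the same intervals the ribosomal protein genes averaged 7.68%, 3.97% and 1.86%, so a rise away from the TSS was not particular to them. A level of 20% or more was found at 12 sites in 8 genes, of which 11 were more than 500 bp from the TSS. These 12 sites held 11.7% of all methylated reads of the 70 genes. Without them the mean over the genes was 2.08% and 69 of 70 genes were under 5%.

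The genes with the highest levels owed them to such sites. *Rps10* (TSS at chr17:27855642, minus strand) had 4 sites, and the one at −974 bp, upstream of the TSS, had levels of 100%, 93.8% and 96.6% in Space and 100%, 100% and 85.0% in Ground GS cells. Without this site, the level of *Rps10* was 4.40%. *Rps12* (TSS at chr10:23663172, minus strand) had 17 sites, of which those 894 and 911 bp downstream averaged 43.1% and 81.4%. Without these 2 sites, the level of *Rps12* was 2.66%. *Rpl35* (TSS at chr2:38895635, minus strand) had 6 sites, all upstream, of which those at −544, −599 and −601 bp averaged 29.1%, 41.4% and 21.6%. The other 3, nearer to the TSS, brought its level to 6.21%. All 3 genes had overlapping Space and Ground levels, as *Rpl35* had 18.2%, 20.4% and 17.1% in Space and 24.4%, 17.9% and 17.9% in Ground GS cells.

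**Figure D3:**
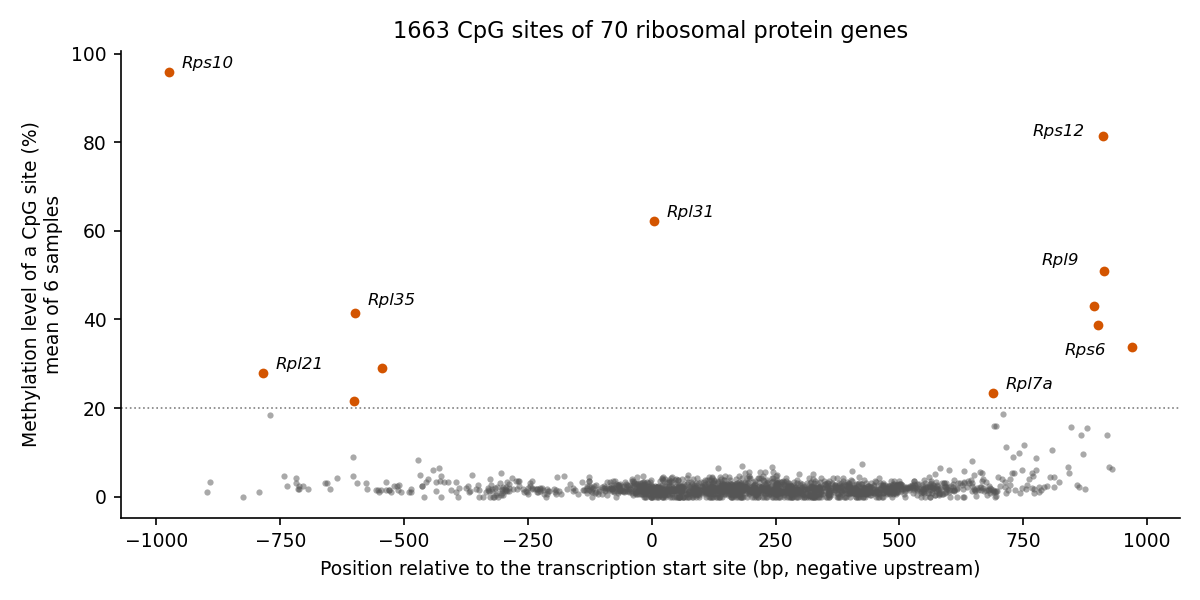
Methylation level in percent of each of the 1663 CpG sites (y axis, mean of 6 samples) against its position in bp from the TSS (x axis, negative upstream). Orange points are the 12 sites at 20% or more (dotted line), and all of them except that of *Rpl31* are more than 500 bp from the TSS.

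The exception was a single site of *Rpl31*, 4 bp downstream of the TSS (chr1:39406926). Its level was 69.8%, 74.2% and 73.5% in Space and 66.7%, 50% and 38.7% in Ground GS cells, from 24 to 45 reads per sample. The nearest covered sites on either side, at −232 and 107 bp, averaged 1.11% and 1.65%. All 3 Space samples were above all 3 Ground samples at this site, with 72.5% ± 2.39 against 51.8% ± 14.1, and the exact permutation test gave the smallest possible p of 0.1. *Rpl31* was chosen for this description after its values were seen. Over all 39 sites, the level of *Rpl31* was 4.56%, 4.67% and 3.95% in Space and 3.26%, 3.51% and 3.07% in Ground GS cells. Without the site at 4 bp it was 2.53%, 3.11% and 2.30% in Space and 1.12%, 2.68% and 2.04% in Ground GS cells, and the groups overlapped.

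Beyond the window, levels differed with the distance. The 7 sites of 4 genes between 1000 and 2000 bp downstream averaged 66.8%, whereas 30636 such sites of other genes averaged 8.36%. From 2000 to 5000 bp downstream, 39 sites of 11 ribosomal protein genes averaged 49.6% and sites of other genes 26.7%. Upstream, the 15 sites between 1000 and 2000 bp averaged 36.7% against 21.0%, but the 51 sites of 4 ribosomal protein genes between 2000 and 5000 bp averaged 6.80% against 35%. These averages rest on few sites, neighbouring sites are often read together, and the differences were not tested.

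Space and Ground GS cells were then compared promoter by promoter with a quasi-binomial test on the read counts of all genes with at least 3 sites, with Benjamini-Hochberg adjustment. None of 14361 promoters (0%) had an adjusted p under 0.05 in this test with the squeezeVar function of limma, and the smallest adjusted p was 0.912. The count was also 0 with edgeR and with limma on log2 ratios. An unadjusted p under 0.05 was found for 763 promoters (5.31%), for 572 with edgeR and for 666 with limma on log2 ratios. Of the 70 ribosomal protein genes, 2 (2.86%) were among the 763, which is no more than the share of all promoters.

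Of the 70 genes, 38 had a higher mean in Space and 32 in Ground GS cells, and 51 differed by under 1 percentage point. The Space and Ground levels did not overlap in 5 genes. Of these, 4 were higher in Space (*Rpl10a*, *Rpl22l1*, *Rpl27a* and *Rpl31*), beside 5.53% of the other autosomal genes, and *Rpl7a* was lower in Space, beside 3.95%. The median over genes of the SD within groups was 1.05 percentage points for ribosomal protein genes and 1.07 for other genes.

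*Rpl22l1* (TSS at chr3:28859584, plus strand), the paralog of *Rpl22*, had the smallest p of the members. Its 37 sites had 2.46%, 3.27% and 1.99% in Space and 0.967%, 0.669% and 1.76% in Ground GS cells. All Space samples were above all Ground samples, by 1.44 percentage points on average (quasi-binomial test, adjusted p = 0.912). *Rpl22* had 0.261%, 1.53% and 5.09% in Space and 3.94%, 2.77% and 3.28% in Ground GS cells, with overlap.

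*Rpl7a* (TSS at chr2:26800775, plus strand) had the largest absolute difference. Its 25 sites lay 290 to 751 bp downstream and had 2.85%, 3.96% and 0.777% in Space and 8.06%, 4.41% and 5.53% in Ground GS cells. All Space samples were below all Ground samples, by a difference of −3.47 (quasi-binomial test, adjusted p = 0.915). In 7 neighbouring sites from 630 to 751 bp, the level ranged from 1.19% to 36.9%, and the highest and the next, 36.9% in Ground 1 and 15.6% in Space 1, were in different groups. Of the other genes without overlap, chosen here after their values were seen, *Rpl27a* had 2.24%, 3.00% and 3.27% in Space and 1.17%, 0.610% and 1.51% in Ground GS cells. *Rpl10a* had 1.35%, 2.94% and 1.85% in Space and 0.742%, 0.756% and 0.485% in Ground GS cells.

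**Figure D4:**
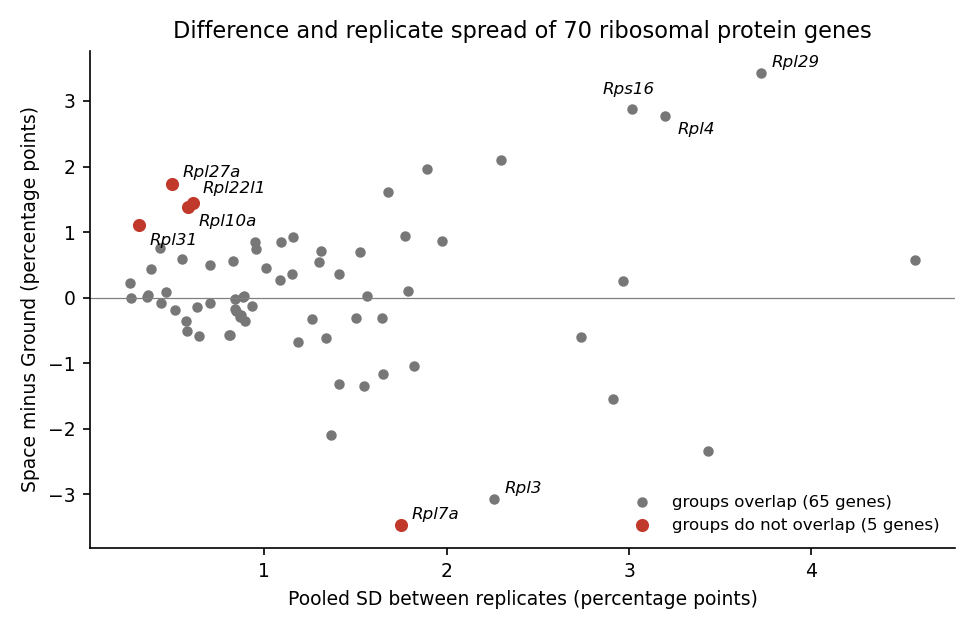
Space minus Ground difference in percentage points (y axis) against the pooled SD between replicates in percentage points (x axis) for each of the 70 genes. Red points are the 5 genes whose groups do not overlap, and *Rpl29*, *Rps16* and *Rpl4* have differences above 2.7 together with a pooled SD of 3 or more.

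The other large differences came from 1 sample each, or from 2 of the same group. *Rpl29* had 2.25%, 1.31% and 10.6% in Space and 2.68%, 0.382% and 0.847% in Ground GS cells, a difference of 3.42. *Rps16* had 1.19%, 7.89% and 0% in Space and 0%, 0.431% and 0% in Ground GS cells, a difference of 2.88. *Rpl4* had 0%, 8.33% and 1.52% in Space and 0%, 1.52% and 0% in Ground GS cells, a difference of 2.78. In all 3 genes a single Space sample stood above the other 5 samples, and the groups overlapped. *Rpl3* had 1.5%, 0.588% and 0% in Space and 6.92%, 0.719% and 3.65% in Ground GS cells, a difference of −3.07 with 2 high Ground samples.

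In *Rpl4*, *Rps16* and *Rpl29*, the raised sample had methylated reads at every site of a stretch. *Rpl4* had 11 sites from 205 to 400 bp downstream with the same coverage, and in Space 2 each of them had 1 methylated read of 12. In *Rps16*, each of 15 sites from −31 to 93 bp had 1 or 2 methylated reads of 15 in Space 2. In *Rpl29*, 6 sites from 173 to 197 bp downstream had 3 or 4 methylated reads of 16 in Space 3, a level of 20.8%, and the other samples were at 0% to 2.27%. In *Rps21*, chosen here after its values were seen, 6 upstream sites from −719 to −577 bp had 4 to 6 methylated reads of 21 in Ground 2, and 0 of 10 to 15 reads in the other 5 samples. Whether the same reads were counted at each site cannot be told from the counts. Gene levels and the promoter test summed reads over every site, so each site of such a stretch entered them. The levels are thus not corrected for reads shared between sites.

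**Figure D5:**
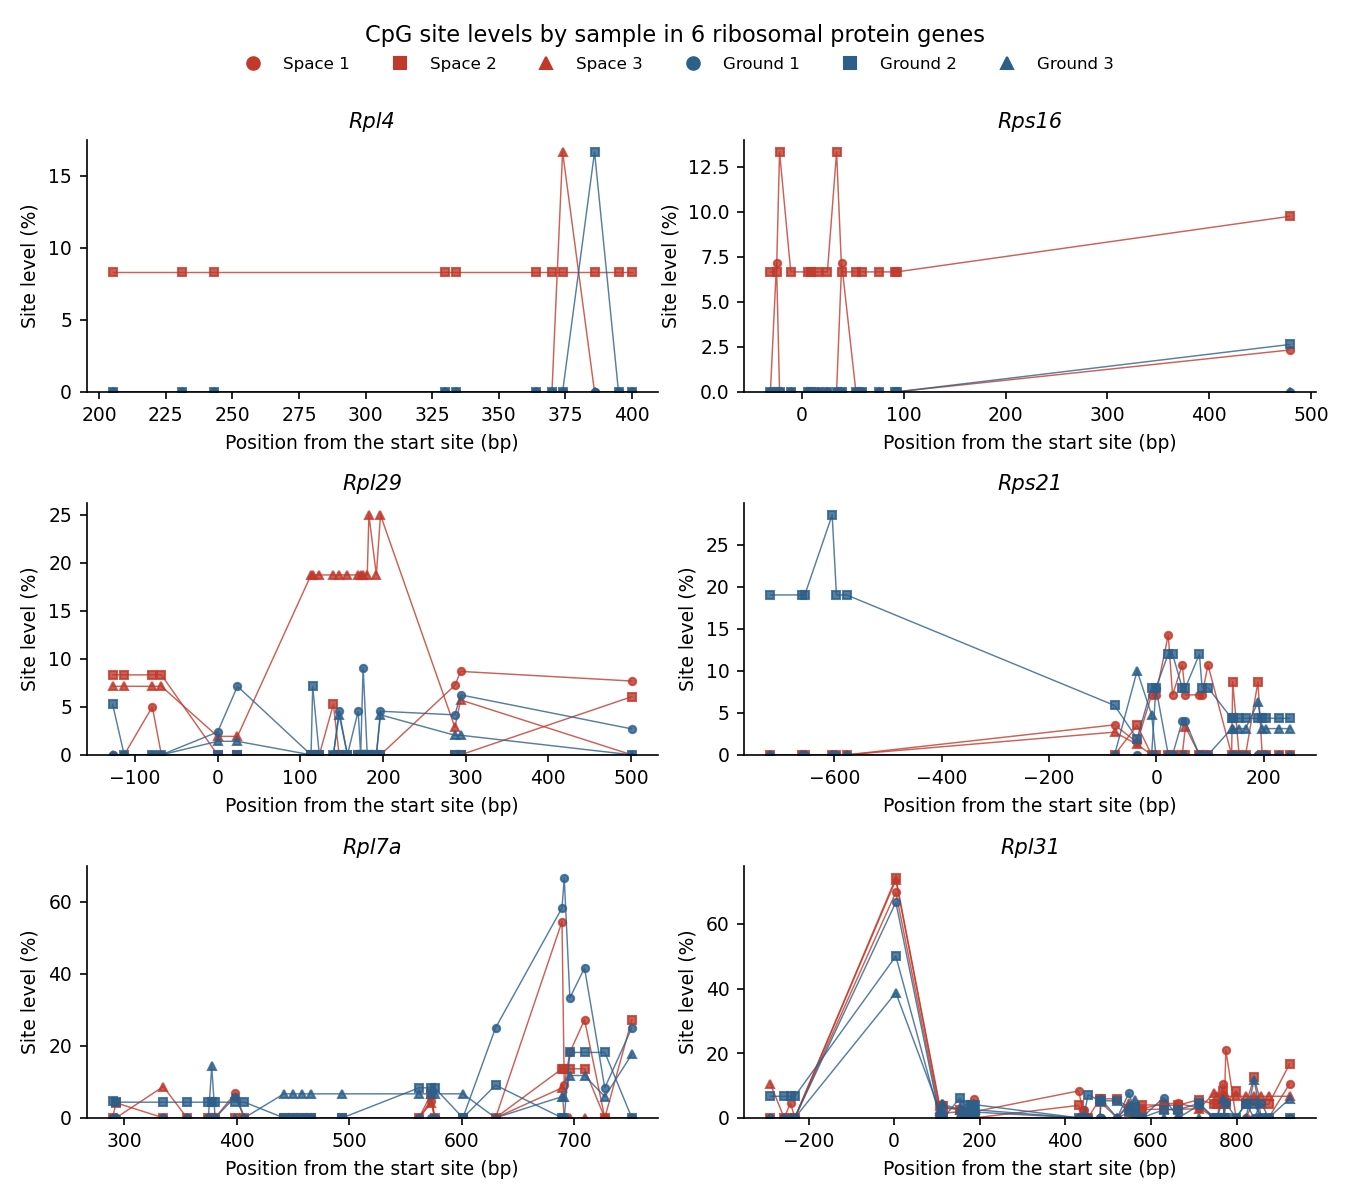
Methylation level in percent of each CpG site (y axis) against its position in bp from the TSS (x axis) in *Rpl4*, *Rps16*, *Rpl29*, *Rps21*, *Rpl7a* and *Rpl31*, with 1 line per sample (red Space, blue Ground). A single sample is raised over a stretch of sites in *Rpl4* (Space 2), *Rps16* (Space 2), *Rpl29* (Space 3) and *Rps21* (Ground 2), and all samples are raised at the site of *Rpl31* 4 bp from the TSS.

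Such stretches were common in these genes. Neighbouring sites with the same coverage in all 6 samples formed 109 stretches of at least 5 sites, with 793 of the 1663 sites. In 87 of them (79.8%) at least 1 sample had a methylated read at every site, and in 37 of the 87 it was exactly 1 sample. Stretches of this kind numbered 24 to 37 per sample, with 28, 37 and 26 in Space and 24, 30 and 34 in Ground GS cells, so that the groups overlapped. Among other autosomal genes, 70.3% of 22078 stretches had a methylated read at every site in at least 1 sample.

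The number of sites and the coverage set how firmly a level is known. *Rpl5* had the most sites, with 55, and levels of 1.76%, 2.12% and 1.28% in Space and 1.98%, 1.39% and 1.67% in Ground GS cells. *Rpl13a*, with the fewest sites (3) and the highest median coverage (67 reads), ranged from 0% to 4.03%. *Rpl4* had the lowest median coverage, with 12 reads.

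Of 82 autosomal symbols of this family with any site in the table, 12 did not become members. *Rpl12*, *Rps14*, *Rps18-ps4*, *Rps27*, *Rps28* and *Rps29* had sites inside the window but too few reads. The 9 sites of *Rps28* had 0 methylated reads of 370, which would allow a level of up to 0.811% if these reads were independent. Reads spanning more than 1 site are counted once per site, so the true limit may be higher. This limit covers counting error only. The 50 sites of *Rps29* had 4.26% over 1175 reads, with 0.594% over 842 reads at the 40 sites within 500 bp. *Rps14*, the gene linked to the 5q- syndrome, had 2 methylated reads of 48, and *Rps27* had 0 of 2. The others, *Rpl10-ps3*, *Rpl17*, *Rpl9-ps6*, *Rps18-ps6*, *Rps23rg1* and *Rps27rt*, had no site inside the window. *Rps2* and *Rps4l* were not analysed here.

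All 4 pseudogene symbols were thus outside the rule, and their values are listed only to describe them. *Rps18-ps4* had 2 sites, 35 and 48 bp from its TSS, each with 1 read in Space 2 and none elsewhere, and both reads were methylated. *Rps18-ps6* had a site 1177 bp downstream of its TSS (chr13:97895962) with 89.5%, 100% and 100% in Space and 90.9%, 94.4% and 96.7% in Ground GS cells, from 18 to 30 reads. Its parent gene *Rps18* averaged 2.17% over 22 sites within 1000 bp. The 3 sites of *Rpl9-ps6* with 10 reads or more were about 14 kb from its TSS and had 92.3%, 90.0% and 88.1% in Space and 100%, 97.6% and 100% in Ground GS cells, whereas *Rpl9* averaged 3.49% around its TSS. The 7 sites of *Rpl10-ps3* were over 54 kb away and fell into 2 sites above 95% and 5 sites below 8%. Sites that far away are only closest to the pseudogene and need not lie in it. The 13 pseudogenes of other families that passed the site rule had a median of 2.57%, and 3 of them were at 20% or more.

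Lists of genes that work with these proteins also had mean levels under 3%. Of the 6 cytosolic ribosomal protein genes outside the naming rule, 5 were measured and averaged 1.53% ± 0.306 in Space and 2.35% ± 0.283 in Ground GS cells. All Space samples were below all Ground samples, and the exact permutation test gave the smallest possible p of 0.1. This order rested on *Fau*, since 3 of the 5 genes were higher in Space, and without *Fau*, a choice made after its values were seen, the means were 1.88% ± 0.440 and 1.72% ± 0.961 (exact permutation test, p = 0.9). *Fau*, which encodes RPS30 fused to a ubiquitin-like protein, had 0%, 0% and 0.420% in Space and 1.18%, 4.37% and 9.09% in Ground GS cells, and it was 1 of 5 with an unadjusted p under 0.05. Of 30 ribosome assembly genes, 28 were measured with a mean of 2.63%, and 2 were above 5%, *Rrp9* at 17.8% over 3 sites and *Tsr1* at 8.06%. Of 27 tested, 3 had an unadjusted p under 0.05, all lower in Space, where the share of all promoters was 5.31%. These were *Nop56*, part of the box C/D snoRNP, *Wdr12*, part of a complex for large subunit assembly, and *Gar1*, part of the H/ACA snoRNP. *Nop56* had 0%, 0% and 0.718% in Space and 5.34%, 1.56% and 3.88% in Ground GS cells. Of 13 translation factor genes with pyrimidine-tract mRNAs, 11 were measured with a mean of 1.97% and 0 had an unadjusted p under 0.05 in the quasi-binomial test. Of 61 mitochondrial ribosomal protein genes tested, 5 had one, and the highest level of that family was 23.3%. With so few genes per list, these counts were not compared with the 5.31% by a test. *Fau*, *Nop56*, *Wdr12*, *Gar1*, *Rrp9* and *Tsr1* were chosen after their values were seen, and no adjusted p was under 0.05 for any of these genes.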

How the data were processed

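Genomic DNA of 3 Space and 3 Ground GS cell samples was analyzed by RRBS. Per the labels, reads were processed with Trim Galore, Bismark 0.24.2 and methylKit on build mm39. The removal of duplicated reads was not given in the sources used here. The authors deposited 1 table, with the coverage of each CpG site in each sample as a count of reads and the methylation level as a percent of these reads, beside the closest TSS and gene. Methylated reads were computed as count times percent and lay within 0.000266 of whole reads.

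Sites were used if every sample had 10 reads or more and the TSS was no more than 1000 bp away, and a gene level is the percent of methylated reads over its sites. Promoters of at least 3 sites were tested with a quasi-binomial test, with dispersions moderated by squeezeVar of limma 3.58.1 in R 4.3.3 and Benjamini-Hochberg adjustment at 0.05. The test was checked on simulated data, with changes larger than any difference found here among the ribosomal protein genes. Single values were compared with exact permutation tests over samples (two-sided). Alternatives were coverage minimums of 5 and 20 reads, windows of 500 and 2000 bp, means of site levels, at least 3 sites per gene or 1 per promoter, subunit genes alone, sites of no more than 1000 reads, edgeR 4.0.16, limma on log2 ratios with 2 added to each count, a replicate block, and leaving out each replicate. Promoter sequences are from RefSeq (GRCm38.p6), and no coordinate was converted. Tables were handled with pandas 2.3.3 and figures drawn with matplotlib 3.10.9 in Python 3.11.15.

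The members and gene lists were chosen with earlier results of these data known. The genes named are those with a mean of at least 5%, an unadjusted p under 0.05 or one of the 5 largest absolute differences, fixed examples with known roles, and the extremes of site number and coverage. Genes named by no part of this rule are marked in the text or complete a count.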

Additional observations from a re-analysis of the deposited data

How the results depend on the processing

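Under each alternative that gave a value, 0 promoters passed the adjusted threshold, with a smallest adjusted p between 0.347 (without Space replicate 3) and 0.999 (edgeR). The number of ribosomal protein genes with an unadjusted p under 0.05 was 2 (2.86%), beside 5.31% of all promoters. It became 4 with a coverage minimum of 5 reads (5.71%, beside 5.27% of all promoters) and a minimum of 20 reads (6.56% beside 5.46%). Sites within 500 bp also gave 4 (5.80% beside 5.58%), as did limma on log2 ratios (5.71% beside 4.64%). The count was 1 with edgeR (1.43% beside 3.98%). With a replicate block it was 4 (5.71%), beside 1052 promoters or 7.33% of all. The Space minus Ground difference over the genes kept its 0.121 with this block (exact sign-flip permutation test, p = 0.75). Between samples of the same replicate number, the correlations of deviations were −0.103, 0.0403 and −0.0813, and no sample correlated best with its own number. With 3 samples per group and levels this low, these values cannot tell whether the replicate numbers pair the samples. Leaving out each replicate gave between 1 and 5 ribosomal protein genes with an unadjusted p under 0.05, beside 5.08% to 5.96% of all promoters. Between 7 and 16 genes were without overlap (fewer samples overlap less often), and the share of other genes was not computed for these settings. The Space minus Ground difference was then between −0.0407 and 0.347. The difference from the other genes was between −6.17 and −6.08 (exact sign-flip permutation test, p = 0.0625 each, the smallest that 5 samples give). The Space minus Ground difference changed its sign to −0.0407 without Ground replicate 3, where the exact permutation p was 0.8. It was highest, at 0.347, without Ground replicate 1, where all Space samples lay above the Ground samples left. The exact permutation p was 0.1 there, the smallest possible. The difference from the other genes changed its sign with the median over genes, to 0.0376. Without the 12 sites of 20% or more, an alternative chosen after seeing the data, the Space minus Ground difference was 0.0879, the difference from the other genes −6.66, and 4 genes had no overlap. The share of other genes without overlap was not computed there. The difference from the other genes was −3.15 with a minimum of 20 reads and −2.03 among genes with at least 3 sites. The remaining alternatives changed no direction or call. The comparisons of pseudogenes with genes had no member to compare and were not run.

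Single sites outside *Rpl31* were not tested. Within *Rpl31*, the sites at 107, 113, 115, 154 and 164 bp were also tested. Their exact permutation p ranged from 0.2 to 0.8. Coverage of a site had a median of 31 reads, and 1 read at the minimum coverage equals 10 percentage points.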
